A study of Mus musculus with 8 samples.

Results

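The genes described here are 10 regulators of vessel growth and endothelial identity in cultured mouse fibroblasts that lack Cbx2. They are the secreted factors Vegfc, Pgf, Angpt1 and Angpt2, the receptors Kdr, Flt1 and Tek, the adhesion molecules Esam and Pecam1, and Apold1. All 10 were found by gene symbol among the 17441 genes of the authors' deposited table. The set was put together with the fold changes of this comparison known, so their values are given as a description. The question set for them was whether Esam rose with or without other endothelial genes.

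The Cbx2-/- cells were primary embryonic fibroblasts homozygous for a targeted Cbx2 deletion, taken at embryonic day 18 and used at passage 2. The wild-type cells were fibroblasts of the same age and passage from litter mates. RNA was sequenced from 2 libraries per genotype at about 4.62 Gb each. The labels do not tie the libraries of a genotype to different embryos, so the spread between them may be technical. Cbx2 itself, a chromodomain subunit of polycomb repressive complex 1, had 27 and 25 reads in the Cbx2-/- libraries, against 355 and 324 reads in the wild-type libraries. The deletion therefore shows in both libraries of its label.

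Vessels are lined by endothelial cells, which read growth signals through receptor tyrosine kinases. VEGF ligands act through Kdr, which drives endothelial growth, and through Flt1, which also works as a decoy that holds ligand away from Kdr. Angpt1 activates the Tek receptor and steadies vessels, and Angpt2 can block that signal. Esam and Pecam1 hold endothelial cells to each other at their junctions. Fibroblasts are known as a source of the ligands and are not expected to hold the endothelial programme.

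RefSeq promoter windows were at hand for 6 of the 10 genes. Those of the 3 genes past the threshold that had a window are shown because they let the GC-rich Pgf and Flt1 starts be set beside the Apold1 start. Each is the 250 bases before a transcription start, on the strand of the gene, from RefSeq for GRCm38.p6. Capitals mark the letters GGAA (the core of ETS factor sites), ACGTG (the core of the hypoxia response element) and GGGCGG (the GC box), on either strand.
Pgf, first start, chr12:85177314-85177563, minus strand: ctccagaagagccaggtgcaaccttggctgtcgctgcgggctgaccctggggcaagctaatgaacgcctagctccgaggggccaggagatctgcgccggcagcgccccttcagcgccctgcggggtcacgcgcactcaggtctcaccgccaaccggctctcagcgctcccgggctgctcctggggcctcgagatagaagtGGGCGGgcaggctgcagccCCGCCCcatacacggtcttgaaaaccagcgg
Flt1, chr5:147726012-147726261, minus strand: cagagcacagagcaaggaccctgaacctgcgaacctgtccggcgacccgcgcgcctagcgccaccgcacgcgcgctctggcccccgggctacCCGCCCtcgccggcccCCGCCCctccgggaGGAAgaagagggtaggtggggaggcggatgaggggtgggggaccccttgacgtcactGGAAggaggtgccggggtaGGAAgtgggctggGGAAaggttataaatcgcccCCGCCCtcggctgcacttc
Apold1, chr6:134981751-134982000, plus strand: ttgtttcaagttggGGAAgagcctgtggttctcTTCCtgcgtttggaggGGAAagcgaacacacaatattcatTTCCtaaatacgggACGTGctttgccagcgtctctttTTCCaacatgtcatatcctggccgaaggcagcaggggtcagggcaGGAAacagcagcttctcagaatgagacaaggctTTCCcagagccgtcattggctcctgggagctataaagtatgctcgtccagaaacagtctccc
The window of the first Pgf start held 2 GC boxes and neither of the other motifs. Its GC content was 68.4%, with 20 CpG dinucleotides. The window of the second Pgf start (chr12:85175983-85176232, not shown) held none of the 3 motifs, with 66.4% GC and 7 CpG. The Flt1 window held 3 GC boxes and 4 GGAA letters, with 70.4% GC and 23 CpG. The Apold1 window held no GC box, 7 GGAA and 1 ACGTG, with 50.8% GC and 8 CpG. Over the 32851 windows of the same kind, 93.4% held GGAA, 16.6% held ACGTG and 32.7% held GGGCGG, and the medians were 52.4% GC and 6 CpG. GGAA is therefore found in nearly every window of this length. The motifs do not overlap each other in these 3 sequences, and a match describes letters only.

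Of the 10 genes, 4 were higher in Cbx2-/- cells (Esam, Pgf, Apold1 and Angpt2), 1 was lower (Flt1) and 5 did not pass the threshold (Vegfc, Angpt1, Kdr, Tek and Pecam1). The threshold is an adjusted p under 0.05 as listed in the authors' deposited table, which comes from their DESeq2 comparison. Among all 17441 genes, 7.78% passed it, 3.48% in the higher direction and 4.3% in the lower. Since the set was chosen on this comparison, nothing is read from its share. The median log2 fold change over all genes was 0.0036. Reads per library were worked out from the table for 12064 genes, all 10 of the set among them. They derive from the deposited means, and for genes with a mean of at least 50 also from the fold changes and p-values. They therefore show the spread between libraries and are not a second measurement. A limma test on those reads called 5 of the 9 genes with a mean of at least 10, where 22.0% of all such genes were called. In 8 of these 9 genes the libraries of one genotype lay wholly above those of the other, as they did in 56.5% of all such genes.

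**Figure D1:**
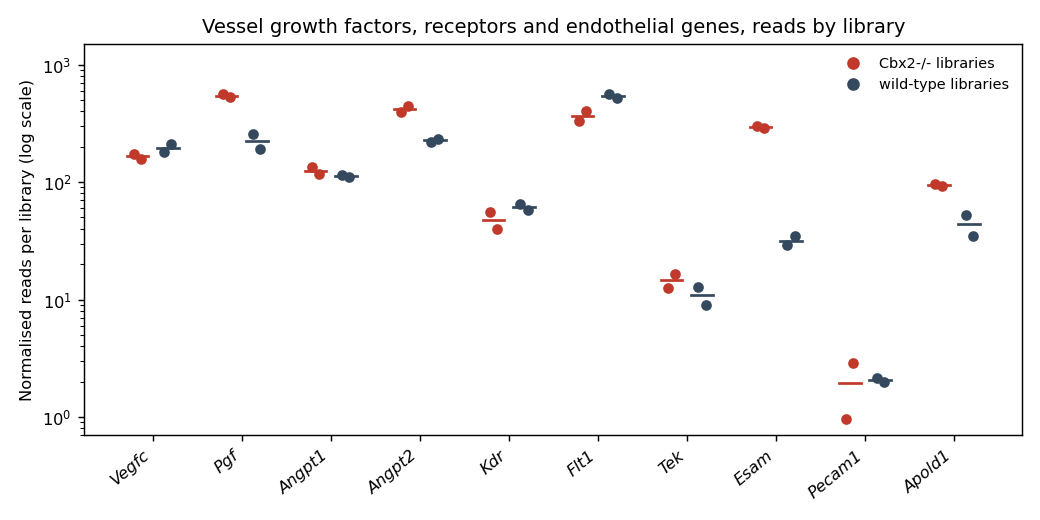
Normalised reads (log axis) of the 10 genes in each library, with Cbx2-/- to the left of wild type; points are libraries and bars are means of 2. Esam stands apart, with both Cbx2-/- libraries far above both wild-type libraries, while Pecam1 has 3 reads or fewer in each library.

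Esam, the endothelial cell-selective adhesion molecule, is an immunoglobulin-type protein of tight junctions that is also found on platelets and blood stem cells. It lies on chromosome 9 (chr9:37528089-37538319, GRCm38.p6). The Cbx2-/- libraries held 310 and 297 reads, and the wild-type libraries held 27 and 35. Both knockout libraries were far above both wild-type libraries, and the libraries of each genotype lay close together. After scaling, Esam averaged 294 ± 8.35 reads in Cbx2-/- cells and 31.8 ± 4.16 reads in wild-type cells (SD, n = 2 each), which is 9.24-fold higher. The authors' deposited table gives a log2 fold change of 3.03 for Esam, with an implied standard error (worked out from the fold change and its p) of 0.24 and an adjusted p of 1.12e-32. By that fold change it ranked as the third of the 607 genes that were higher in the authors' deposited table.

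Pecam1, the CD31 antigen by which endothelial cells are usually recognised, had 1 and 3 reads in the Cbx2-/- libraries and 2 and 2 in the wild-type libraries. Counts this low carry no fold change. Esam was thus read in both genotypes in cells with hardly any Pecam1 reads.

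Apold1, an immediate early gene of endothelial cells linked to vessel stress responses, had 100 and 96 reads in Cbx2-/- libraries and 49 and 35 in wild-type libraries. All knockout values were above all wild-type values, and its normalised reads were 2.18-fold higher. The log2 fold change of Apold1 in the authors' deposited table was 1.03, with an implied standard error of 0.31 and an adjusted p of 0.0143. Leaving out either Cbx2-/- library gave an Apold1 log2 ratio of 1.12 or 1.17. Leaving out either wild-type library gave 1.44 or 0.85, so the size of the change depended more on the wild-type libraries.

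Among the ligands, Pgf and Angpt2 rose. Pgf, the placental growth factor that binds Flt1 and not Kdr, had 577 and 545 reads in Cbx2-/- libraries and 240 and 194 in wild-type libraries. The ranges did not touch, and normalised reads averaged 543 ± 20.9 in Cbx2-/- cells and 225 ± 45.2 in wild-type cells (SD, n = 2 each), or 2.42-fold higher. Its log2 fold change in the authors' deposited table was 1.25 (implied standard error 0.15) and its adjusted p was 2.5e-14.

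Angpt2 had 410 and 455 reads in Cbx2-/- libraries, against 204 and 236 in wild-type libraries. Both knockout libraries exceeded both wild-type libraries, by 1.85-fold on the means of normalised reads. For Angpt2 the authors' deposited table lists a log2 fold change of 0.87, an implied standard error of 0.15 and an adjusted p of 5.56e-07. This is under the 2-fold cut that the authors used for their own up and down calls, so Angpt2 carries no such call there.

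Angpt1 had 139 and 120 reads in Cbx2-/- libraries and 108 and 112 in wild-type libraries. The genotypes lay close together, and the authors' deposited table lists a log2 fold change of 0.14 with an adjusted p of 0.931. Per kilobase, normalised reads of Angpt2 were 3.57 and 4.59 times those of Angpt1 in the Cbx2-/- libraries, against 2.29 and 2.55 times in the wild-type libraries. Vegfc, the main ligand of lymphatic growth, had 180 and 162 reads in Cbx2-/- libraries and 168 and 214 in wild-type libraries. Before scaling the ranges overlapped, and after scaling to library size the knockout values lay just below. Vegfc had a log2 fold change of -0.24 in the authors' deposited table, with an adjusted p of 0.803.

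Of the receptors, Flt1 fell. The Cbx2-/- libraries held 345 and 415 Flt1 reads, and the wild-type libraries held 523 and 527. Both knockout libraries were below both wild-type libraries, at 0.68 times their normalised mean. Its log2 fold change in the authors' deposited table was -0.55, with an implied standard error of 0.13 and an adjusted p of 0.00116. So Pgf and its receptor moved in opposite directions, and per kilobase Pgf reads were 6.70 and 5.26 times those of Flt1 in Cbx2-/- libraries and 1.84 and 1.48 times in wild-type libraries.

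Kdr had 57 and 41 reads in Cbx2-/- libraries and 61 and 58 in wild-type libraries. One knockout library reached nearly the wild-type reads and the other did not. In the authors' deposited table the log2 fold change of Kdr was -0.33, with an implied standard error of 0.33 and an adjusted p of 0.894. Tek had 13 and 17 reads in Cbx2-/- libraries and 12 and 9 in wild-type libraries. After scaling, the libraries overlapped, and the authors' deposited table lists a log2 fold change of 0.28 with an implied standard error of 0.51 and an adjusted p of 0.931. At this depth, differences in Kdr and Tek smaller than their errors were not detectable, and larger ones can miss the threshold too. Ptprb, an endothelial gene described below, did not pass at a log2 fold change of -0.99 with an implied standard error of 0.49.

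The order of the genes by reads per kilobase differed between genotypes chiefly in the place of Esam. In Cbx2-/- cells Pgf came first with 347 normalised reads per kilobase, then Esam (158), Angpt2 (118), Vegfc (88.0), Flt1 (58.6), Angpt1 (29.1), Apold1 (28.9), Kdr (8.68), Tek (3.09) and Pecam1 (0.64). Angpt1 and Apold1 overlapped there, and all other neighbours in the order were apart in both libraries. In wild-type cells the order was Pgf (143), Vegfc (104), Flt1 (86.2), Angpt2 (63.5), Angpt1 (26.3), Esam (17.1), Apold1 (13.3), Kdr (11.2), Tek (2.32) and Pecam1 (0.68). The place of Apold1 was not settled there, since it overlapped both Esam above it and Kdr below it, while Esam lay above Kdr in both libraries.

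**Figure D2:**
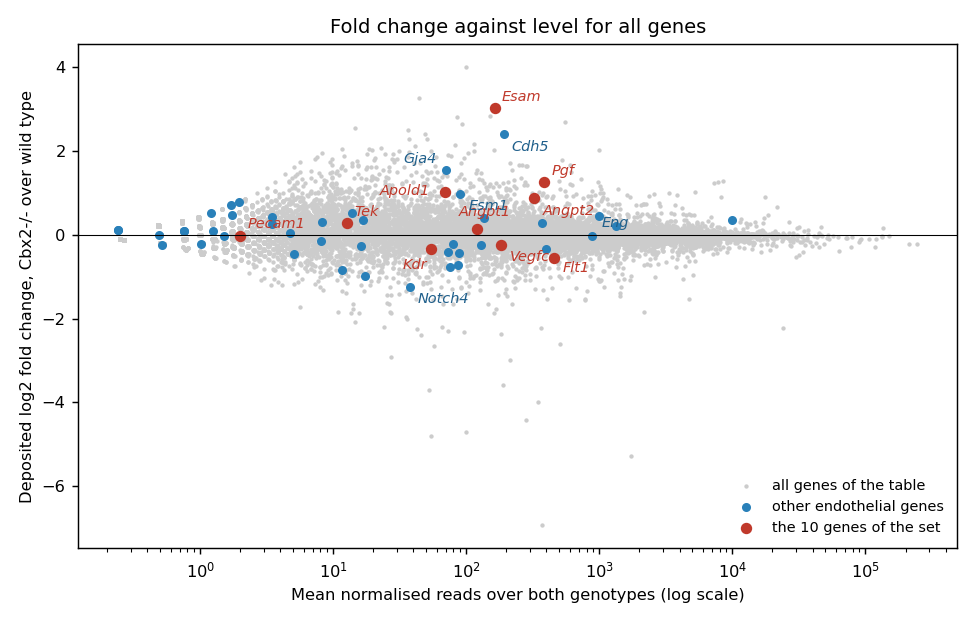
Deposited log2 fold change (Cbx2-/- over wild type) against the mean normalised reads (log axis) for all 17441 genes in grey, other endothelial genes in blue and the 10 genes of the set in red. Esam (3.03) and Cdh5 (2.40) lie near the upper edge, and many endothelial genes sit at the left with few reads.

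Esam did not rise alone, and most endothelial genes did not rise with it. Of 46 further endothelial genes listed, 41 were in the table. By the authors' deposited adjusted p in that table, 5 of them rose (Cdh5, Gja4, Esm1, Procr and Thbd), 1 fell (Notch4) and 35 did not pass the threshold, with a median log2 fold change of 0.087. Limma on the recovered reads, over genes with a mean of at least 10, called 5 higher (Cdh5, Gja4, Esm1, Cd34 and Cd93) and 6 lower (Notch4, Clec14a, Tmem100, Ptprb, Selp and Ecscr). Procr and Thbd had no recovered reads and were not in that fit. Reads were recovered for 37 of the 41, and those of them with a mean under 10 were also left out. The limma counts of 5 and 6 are therefore not out of 41. Of all 7657 genes in that fit, 954 were called higher and 733 lower, which is 22.0% in either direction. By the deposited adjusted p, 3.48% of all 17441 genes were higher and 4.3% lower. The mean was under 20 normalised reads in 24 of the 41 and under 5 in 16. In bulk RNA, a change in the number of cells of a type and a change in RNA per cell cannot be told apart. In the same libraries 10 of 20 macrophage genes rose, and their part in this result was not tested.

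Cdh5, or VE-cadherin, the adhesion protein of endothelial adherens junctions, lay nearest to Esam by deposited log2 fold change in this list. It had 346 and 330 reads in Cbx2-/- libraries and 50 and 63 in wild-type libraries, so the genotypes were far apart. Normalised reads were 5.64-fold higher, and the authors' deposited table gives a log2 fold change of 2.40 with an adjusted p of 1.97e-27. Per kilobase, Esam reads were 1.93 and 1.94 times Cdh5 reads in Cbx2-/- libraries and 1.16 and 1.20 times in wild-type libraries.

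Gja4, the gap junction protein connexin 37 of arterial endothelium, had 110 and 113 reads in Cbx2-/- libraries and 33 and 32 in wild-type libraries. All knockout values were above all wild-type values, and the authors' deposited table lists a log2 fold change of 1.54 with an adjusted p of 1.55e-05. Esm1, a proteoglycan secreted by endothelial tip cells, had 117 and 130 reads in Cbx2-/- libraries and 56 and 57 in wild-type libraries. Its log2 fold change in the authors' deposited table was 0.97, with an adjusted p of 0.00626. Procr, the protein C receptor, rose by less, with 1139 in Cbx2-/- cells and 839 in wild-type cells in the authors' deposited table (log2 fold change 0.44). Thbd, thrombomodulin, was at 11116 in Cbx2-/- cells and 8682 in wild-type cells in the authors' deposited table (log2 fold change 0.36). Notch4, the Notch receptor of endothelium, went the other way, with 19 and 23 reads in Cbx2-/- libraries and 51 and 57 in wild-type libraries. The authors' deposited table has its log2 fold change at -1.24 with an adjusted p of 0.0184.

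Among endothelial genes with ample reads that did not pass in the deposited comparison, S1pr1 stood at 1421 in Cbx2-/- cells and 1228 in wild-type cells in the authors' deposited table (adjusted p 0.0906). Eng, a TGF-beta coreceptor that fibroblasts also make, stood at 877 in Cbx2-/- cells and 888 in wild-type cells in the authors' deposited table (adjusted p 0.982). Ecscr had 356 and 358 reads in Cbx2-/- libraries and 366 and 496 in wild-type libraries. In the order named, the authors' deposited table lists 0.21, -0.02 and -0.35 as their log2 fold changes.

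Of the 10 genes fixed as endothelial markers, Pecam1, Tie1, Emcn and Vwf had 3 reads or fewer in each library of both genotypes. Reads could be worked out for 8 of the markers, and their normalised sum was 484 and 451 in Cbx2-/- libraries and 223 and 215 in wild-type libraries. Without Cdh5 the sum was 149 and 131 in Cbx2-/- libraries and 170 and 153 in wild-type libraries. The higher sum in the knockout libraries was therefore that of Cdh5, and the other 7 summed to slightly less there.

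**Figure D3:**
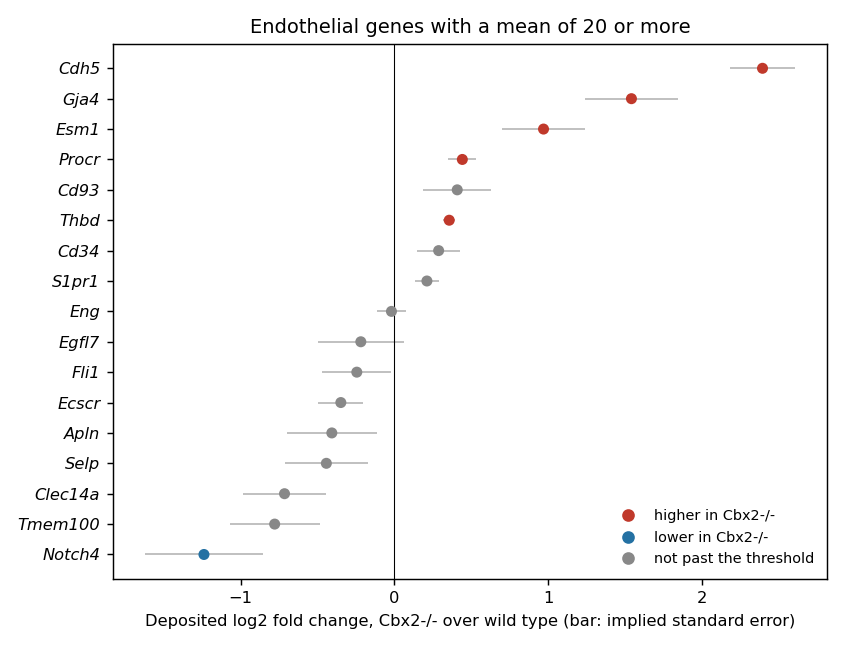
Deposited log2 fold change (Cbx2-/- over wild type) of the further endothelial genes with a mean of at least 20 normalised reads, with bars for the implied standard error (the log2 fold change divided by the z value of its p). Cdh5, Gja4, Esm1, Procr and Thbd passed the threshold upward and Notch4 downward, and the rest lie on both sides of 0.

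In the wider VEGF family, 1 of 10 genes rose (Pgf), 3 fell (Flt1, Nrp1 and Nrp2) and 6 did not pass. The median log2 fold change was -0.16 in the authors' deposited table. Vegfc, Pgf, Flt1 and Kdr belong to the set, so the changes of Pgf and Flt1 were known when it was chosen. Over all genes, 3.48% were higher and 4.3% lower in that comparison. Nrp1 and Nrp2 are neuropilins, coreceptors for VEGF ligands. Nrp1 was at 5930 in Cbx2-/- cells and 7043 in wild-type cells in the authors' deposited table (log2 fold change -0.25). Nrp2 was at 1863 in Cbx2-/- cells and 2345 in wild-type cells in the authors' deposited table (log2 fold change -0.33). Vegfa, the main driver of vessel growth, was at 5493 in Cbx2-/- cells and 5058 in wild-type cells in the authors' deposited table, with an adjusted p of 0.123. Per kilobase, Vegfa was 4.73 times Pgf in Cbx2-/- cells and 10.4 times in wild-type cells in the authors' deposited table, so Vegfa was the more abundant ligand in both genotypes. The ligands Vegfb (log2 fold change -0.08) and Figf (0.02) did not pass the threshold in the authors' deposited table.

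In the angiopoietin and Tie group, 1 of 6 genes rose (Angpt2) and the other 5 did not pass. Angpt1, Angpt2 and Tek belong to the set, so the rise of Angpt2 was known when it was chosen. By the deposited adjusted p, 3.48% of all genes were higher and 4.3% lower. Angpt4 had 57 and 69 reads in Cbx2-/- libraries and 53 and 55 in wild-type libraries. Ptprb, the phosphatase that switches Tek off, had 6 and 14 reads in Cbx2-/- libraries and 21 and 28 in wild-type libraries, with 0.3 as its adjusted p in the authors' deposited table, and was lower by limma on the recovered reads (adjusted p 0.007). None of 6 angiopoietin-like factors passed in the authors' deposited table, the most abundant being Angptl2 (log2 fold change -0.13, adjusted p 0.0543) and Angptl4 (0.25, adjusted p 0.12). Of 6 lymphatic endothelial genes 1 passed, the transcription factor Foxc2, at 1102 in Cbx2-/- cells and 789 in wild-type cells in the authors' deposited table. Lyve1 and Prox1, which mark lymphatic endothelium, had 16 reads or fewer in each library.

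Genes related to Esam by structure, the CTX and JAM immunoglobulin proteins of cell junctions, did not move together. The 8 of this list in the table count Esam itself, which was chosen with its fold change known. Of these 8, Esam and Cxadr rose, Jam2 and F11r fell and 4 did not pass. Over all genes, 3.48% were higher and 4.3% lower by the deposited adjusted p. Cxadr, the coxsackievirus and adenovirus receptor, had 303 and 288 reads in Cbx2-/- libraries and 191 and 192 in wild-type libraries. Jam2, which endothelial cells also carry, had 219 and 238 reads in Cbx2-/- libraries and 345 and 352 in wild-type libraries. F11r, or JAM-A, had 229 and 206 reads in Cbx2-/- libraries and 280 and 332 in wild-type libraries. Their log2 fold changes in the authors' deposited table were 0.52 for Cxadr, -0.68 for Jam2 and -0.57 for F11r. Clmp, Jam3 and Igsf11 did not pass. Of 14 tight junction scaffolds and claudins, Cgnl1 (paracingulin) passed, at 1745 in Cbx2-/- cells and 1043 in wild-type cells in the authors' deposited table, and the scaffold gene Tjp1 did not.

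Of the platelet and blood stem cell genes, where Esam is also known, 11 were in the table and none rose by the deposited adjusted p (1, Ppbp, was higher by limma on the recovered reads). Itgb3 and Runx1 fell, with -0.71 and -0.33 as their log2 fold changes in the authors' deposited table. Over all genes, 3.48% were higher and 4.3% lower there. Itga2b, the platelet integrin partner of Itgb3, had 47 and 42 reads in Cbx2-/- libraries and 36 and 33 in wild-type libraries, with 0.931 as its adjusted p in the authors' deposited table.

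The genes next to Esam were looked at because neighbours can share a change. Nrgn (neurogranin, a calmodulin-binding protein of neurons) starts 16.4 kb above the start of Esam by lower coordinate. It had 79 and 55 reads in Cbx2-/- libraries and 10 and 4 in wild-type libraries. Its normalised reads were 8.85-fold higher and the genotypes were far apart, with a log2 fold change of 2.49 and 3.64e-07 as its adjusted p in the authors' deposited table. Vsig2, a relative of Esam that lies between them at 11.2 kb, had 28 and 27 reads in Cbx2-/- libraries and 2 and 14 in wild-type libraries. The wild-type libraries differed widely, and the Vsig2 log2 fold change of 1.17 did not pass in the authors' deposited table (adjusted p 0.174). The gene models of Vsig2 (chr9:37539255-37544205) and Nrgn (chr9:37544493-37552745) overlap neither Esam nor each other in RefSeq. Siae, a sialic acid acetylesterase 85.7 kb above, rose with a log2 fold change of 0.63 and 0.00582 as its adjusted p in the authors' deposited table.

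In the deposited comparison the other 7 of the 10 nearest genes did not pass, among them Msantd2, the nearest on the lower side (log2 fold change 0.36, adjusted p 0.268 in the authors' deposited table). Limma on the recovered reads called Nrgn, Siae, Vsig2 (adjusted p 0.000549), Msantd2 (adjusted p 0.00619) and Robo3 (adjusted p 0.0359) higher. In the deposited comparison Nrgn and Siae alone passed, where 3.48% of all genes were higher and 4.3% lower. Hepacam and Tbrg1 were not in the limma fit. That fit called 22.0% of its 7657 genes, 954 of them higher. Beside the other called genes of the set, Csmd1 next to Angpt2 and Gprc5a next to Apold1 rose in the deposited comparison. Their log2 fold changes in the authors' deposited table were 1.38 and 0.26. Limma on the recovered reads also called Agpat5 next to Angpt2 higher (adjusted p 0.00524) and Gpr19 next to Apold1 lower (adjusted p 0.00609). The start of Csmd1 lies in the megabase range from Angpt2. None of the 4 nearest genes of Pgf or of Flt1 passed. The genes whose deposited log2 fold change lay nearest to that of Esam were Rbm46 (2.85), Rasl12 (2.82), Nkain4 (3.27), Lyz2 (2.68) and Prss35 (2.64), all from the authors' deposited table. This likeness is over 2 genotypes only.

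**Figure D4:**
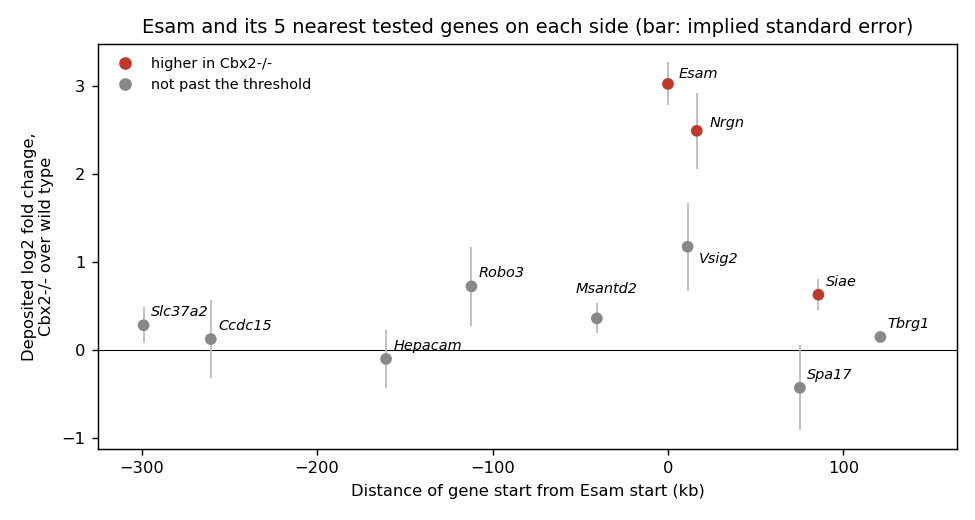
Deposited log2 fold change (Cbx2-/- over wild type) of Esam and the 5 nearest tested genes on each side, against the distance between gene starts in kb, with bars for the implied standard error. Esam (3.03) and Nrgn (2.49) stand above the rest, and Siae is the other neighbour that passed in the deposited comparison.

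Markers of other cells moved as well, without a test of their part in the results. For all genes the shares by the deposited adjusted p were 3.48% higher and 4.3% lower. Of 20 macrophage genes, 10 rose and none fell by the deposited adjusted p (Cd53 was lower by limma on the recovered reads), with a median log2 fold change of 1.34 in the authors' deposited table. The macrophage list had 19 genes with reads worked out, and their normalised sum was 2023 and 1985 in Cbx2-/- libraries and 763 and 703 in wild-type libraries. Lyz2, lysozyme, had 976 and 988 reads in Cbx2-/- libraries and 134 and 146 in wild-type libraries. Itgam had 41 and 41 reads in Cbx2-/- libraries and 5 and 6 in wild-type libraries. Csf1r, the receptor that macrophages depend on, had 289 and 242 reads in Cbx2-/- libraries and 240 and 234 in wild-type libraries, with 0.955 as its adjusted p in the authors' deposited table. Of the 8 genes fixed as macrophage markers 6 rose, and none of the 8 was at 0 in any library. Of the 4 epithelial markers 2 fell, and their normalised sum was 82.2 and 79.5 in Cbx2-/- libraries and 381 and 356 in wild-type libraries. None of the 3 platelet, 3 neural or 2 skeletal muscle markers in the table passed the threshold.

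Of 12 pericyte and smooth muscle genes, 2 rose and 7 fell, with a median log2 fold change of -0.20 in the authors' deposited table. The 2 that rose, Kcnj8 and Abcc9, encode the channel and the regulatory subunit of one potassium channel. Kcnj8 had 301 and 294 reads in Cbx2-/- libraries and 121 and 137 in wild-type libraries. Abcc9 had 494 and 523 reads in Cbx2-/- libraries and 243 and 243 in wild-type libraries. Notch3 and Rgs5, which mark mural cells around vessels, fell, with -1.54 and -1.10 as their log2 fold changes in the authors' deposited table. Of 12 fibroblast genes, 1 rose (Thy1) and 8 fell. Fibroblast collagen was abundant in both genotypes, and Col1a1 stood at 227630 in Cbx2-/- cells and 264489 in wild-type cells in the authors' deposited table.

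Secreted modulators of vessel growth moved both ways, with 5 of 22 up, 4 down and a median log2 fold change of 0.01 in the authors' deposited table. Beside this, 3.48% of all genes were higher and 4.3% lower. Hgf, a growth factor for endothelial and epithelial cells, had 304 and 278 reads in Cbx2-/- libraries and 584 and 523 in wild-type libraries, and fell (adjusted p 9.09e-11, authors' deposited table). Timp3, a protease inhibitor that can block VEGF from Kdr, was at 26344 in Cbx2-/- cells and 16745 in wild-type cells in the authors' deposited table, and rose. Col18a1, the source of endostatin, and Adm, adrenomedullin, also rose, with 0.38 and 0.41 as their log2 fold changes in the authors' deposited table. Thbs1, thrombospondin 1, an inhibitor of vessel growth, fell with a log2 fold change of -0.22 in the authors' deposited table.

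Vegfa, Pgf and Angpt2 are among the genes that low oxygen can induce. A list of 16 hypoxia-induced genes, which counts Vegfa itself, was set beside Pgf and Angpt2. By the adjusted p in the authors' deposited table, there were 2 that rose (Adm and Ndrg1) and 5 that fell, with a median log2 fold change of -0.10. Slc2a1, the glucose transporter, and Bnip3, a mitochondrial protein, fell with -0.39 and -0.75 as their log2 fold changes in the authors' deposited table. Apold1 was likewise set beside 16 immediate early genes, of which 4 rose and 1 fell with a median log2 fold change of 0.19 in the authors' deposited table. The 4 were Egr1, Egr3, Ier3 and Dusp1, and Klf2, a factor induced in endothelium by blood flow, fell. Egr3, the one of these 4 with reads worked out per library, had 519 and 529 reads in Cbx2-/- libraries and 366 and 353 in wild-type libraries.

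**Figure D5:**
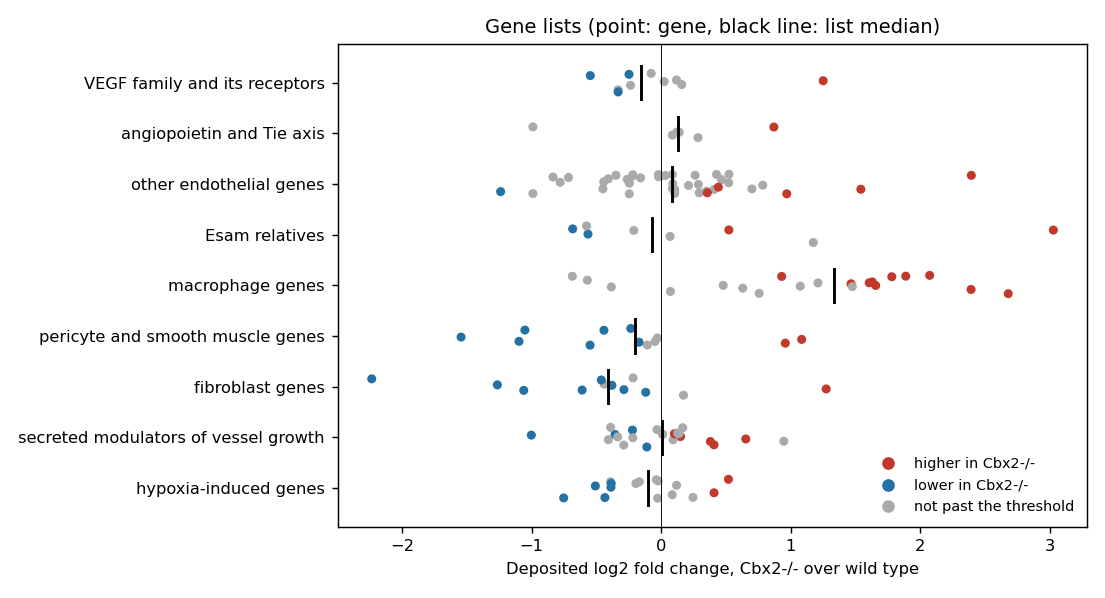
Deposited log2 fold change (Cbx2-/- over wild type) of every tested gene in 9 gene lists, coloured by whether it passed the threshold, with a black line at the list median. The endothelial list is centred near 0 with a few genes far to the right, while the macrophage list has its median at 1.34.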

How the data were processed

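Passage 2 embryonic fibroblasts gave 2 RNA libraries per genotype, sequenced on a DNBseq instrument, per the labels. The 2 ATAC-seq libraries per genotype are not analysed here. HISAT2, Bowtie2, RSEM and DESeq2 are named with genome mm10, per the submitters' processing notes, with roles, filters and versions not given in the sources used here. Per gene and genotype the authors deposited 1 normalised signal value, whose mean equals that of the scaled reads of the 4 libraries and whose ratio is the deposited fold change, shrunken toward 0 for genes with few reads. The log2 fold changes, p-values and adjusted p-values (Benjamini-Hochberg) were deposited by the authors. An implied standard error is the log2 fold change divided by the z value of its deposited p. The deposited values sum to 18910077 in Cbx2-/- cells and 19428299 in wild-type cells.

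Whole reads per library were recovered from the deposited values. Under a mean of 50, the set of reads that gives the deposited mean was taken. From 50 to 700, the authors' DESeq2 fit was solved for reads that also give the fold change and p. Exactly 1 set gave the mean in all 6126 genes under 50. In 6045 of these the set also matched the authors' fit. Of 6066 genes with a mean of 50 to 700, 97.9% were recovered. Reads were thus recovered for 69.2% of all genes. Size factors were 1.03 and 1.03 in Cbx2-/- and 0.935 and 1.01 in wild type. Recovered libraries are not matched to the labels' replicate numbers. RSEM estimates how reads are shared among similar genes, so a recovered read is a whole unit of the deposited scale. Limma 3.58.1 (R 4.3.3) with a mean-variance trend was run on log2 of scaled reads plus 0.5. Over all recovered genes it failed on simulated data with known changes, so a minimum mean of 10 was added after seeing the data. Both the recovery and this test were checked on simulated data. Python 3.11.15 was used otherwise. Levels were compared between genes per kilobase of the deposited length.

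The genes of the set and the 14 lists were chosen with earlier results of these data known. Named are Cbx2, the set, called list genes in order of adjusted p, the most abundant list genes not called, the nearest genes of the called ones and the 5 called genes nearest to Esam in fold change. Marker genes are named besides. Identifiers matched the RefSeq table of GRCm38.p6 for 17400 of 17441 genes. Promoters were searched for 3 motifs on both strands. Alternatives were other thresholds, a level filter, other pseudocounts, limma and leaving out 1 library.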

Additional observations from a re-analysis of the deposited data

How the results depend on the processing

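Of the 10 genes, those higher numbered 4, and 2 in the upper part of genes by mean, split at the median, which leaves out Esam and Apold1. The 1 lower gene, Flt1, became 0 with a 2-fold cut, 0 by Bonferroni and 0 by limma on all recovered genes (adjusted p 0.0708), the fit that failed on simulated data. That fit also lost Apold1 (adjusted p 0.0775), leaving 3 higher. Over all genes the 607 higher became 175 with a 2-fold cut, 249 by Bonferroni, 274 by limma on all recovered genes and 954 by limma with a minimum mean of 10. The 750 lower became 119, 299 and 202 under the first 3 of these. Leaving out 1 library at a time gave log2 ratios of 3.06 to 3.33 for Esam, 1.08 to 1.49 for Pgf, 0.81 to 0.96 for Angpt2, 0.85 to 1.44 for Apold1 and -0.70 to -0.43 for Flt1. With a minimum mean of 10, Esam, Pgf, Angpt2 and Flt1 passed in all 4 of these settings and Apold1 in 2. In the planned fit without that minimum, Esam passed in 2 of the 4 (adjusted p up to 0.106) and Pgf, Angpt2, Apold1 and Flt1 in 0. The falling genes among the further endothelial genes numbered 1 by the deposited adjusted p, 2 by limma without the minimum and 6 by limma with it. Pecam1, deposited at -0.02, ranged between -0.80 and 0.41, so its sign turned. No paired analysis was possible because the table carries no replicate numbers. Single values per genotype limit the depth check to genes whose reads could be recovered, and intervals for genes with few reads are wide.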
